A study of Mus musculus with 6 samples.

Results

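The myogenic transcription factors, their MEF2 and SRF partners and desmin were examined in the unloaded soleus, a slow postural muscle of the mouse hindlimb. The members were taken by gene symbol as Myod1, Myog, Myf5, Myf6, Mef2a, Mef2c, Srf and Des, and each had 1 probe, so that they make up 8 of the 203 genes named on the array. The study holds a single group of 6 arrays of C57Bl/6 mouse soleus, whose titles carry the mark wt and the code HS7, and every animal had been hindlimb suspended, a procedure that takes the body weight off the hindlimbs. No ambulatory, reloaded or otherwise treated animals were analysed here, so the values describe unloaded muscle and say nothing of a change with unloading. The labels number the arrays without saying that each came from another animal, so some of the differences between arrays could be technical. The RNA came from sections of whole muscle, in which fewer cells of a type and less RNA per cell cannot be told apart.

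MyoD, myogenin, Myf5 and Myf6 (also called MRF4) are basic helix-loop-helix factors that commit cells to the muscle lineage and carry them through differentiation. They bind the E-box, a short DNA element written CANNTG, as partners of widely expressed E proteins. MEF2 factors bind an AT-rich element and act together with the myogenic factors, and serum response factor (SRF) binds the CArG box of cytoskeletal and immediate early genes. In adult fibres Myf6 is the most abundant of the myogenic factors, while Myf5 is chiefly known from satellite cells and muscle spindles. Desmin is the intermediate filament protein that links the Z-discs of neighbouring myofibrils.

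The upstream sequences of 3 members are shown because letters matching the elements that these factors bind stand in the promoters of some members. Each sequence holds the 250 bases before the RefSeq gene start of build GRCm38.p6, in which capitals mark E-boxes, CArG boxes and matches to the MEF2 consensus whose last base was left free. The Myog sequence lies at chr1:134289754-134290003 on the plus strand, that of Srf at chr17:46556163-46556412 on the minus strand and that of Des at chr1:75360042-75360291 on the plus strand.
Myog: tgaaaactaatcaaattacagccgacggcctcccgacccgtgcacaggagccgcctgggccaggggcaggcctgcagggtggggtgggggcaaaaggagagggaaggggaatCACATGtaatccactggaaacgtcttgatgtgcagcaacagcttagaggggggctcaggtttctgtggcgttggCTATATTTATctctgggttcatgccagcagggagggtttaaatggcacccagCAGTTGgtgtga
Srf: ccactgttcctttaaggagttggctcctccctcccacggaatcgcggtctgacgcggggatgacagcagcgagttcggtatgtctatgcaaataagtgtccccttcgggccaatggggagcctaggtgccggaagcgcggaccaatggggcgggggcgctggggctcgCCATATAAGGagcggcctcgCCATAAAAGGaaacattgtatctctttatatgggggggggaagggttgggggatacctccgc
Des: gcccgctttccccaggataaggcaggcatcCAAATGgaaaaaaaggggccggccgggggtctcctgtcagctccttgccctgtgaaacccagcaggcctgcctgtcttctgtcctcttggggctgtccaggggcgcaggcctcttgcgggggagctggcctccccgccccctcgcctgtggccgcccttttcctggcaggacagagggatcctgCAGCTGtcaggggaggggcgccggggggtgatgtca

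The Myog window held the E-boxes CACATG, 138 to 133 bases before the start, and CAGTTG, 12 to 7 bases before it, and the AT-rich match CTATATTTAT at 64 to 55 bases before the start. The Srf window held 2 CArG boxes, CCATATAAGG at 82 to 73 and CCATAAAAGG at 62 to 53 bases before the start, and no E-box. The Des window held the E-boxes CAAATG and CAGCTG. The search read both strands, and no marked matches overlapped in these 3 windows. Of all 32851 promoter windows of this length, 66.2% held an E-box, 1.47% a CArG box, 2.92% the full MEF2 consensus and 7.03% the one with a free last base, which was added once the full one was seen to match no member. Of the 8 members, 6 had a promoter in the table, and Myod1 and Myf6 had none there. An E-box was found for 3 of the 6 (Myog, Des and Mef2c), a CArG box for 1 (Srf) and the MEF2 match with a free last base for 2 (Myog and Mef2c), while Mef2a and Myf5 had no marked match. Mef2c had 3 windows, 1 of them without a match, and each other gene had 1. A gene was counted if any of its windows matched, so these counts per gene are not in the unit of the shares per window. A match is a run of letters and not a measured binding site.

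The deposited table gives 1 intensity for each of 223 probes and 6 arrays, on a linear scale in arbitrary units from which background had been subtracted. On every array 171 of the probes, or 76.7%, lay above 0, and these are called measured below. Replicate 1 stood apart: its intensities summed to 37.5 against 15.3 to 18.5 on the other arrays, and its Pearson correlations with them over the measured probes lay between 0.857 and 0.911, against 0.957 to 0.977 among the others. Several of the values that rest on it are given with and without it, but not all. The size of the most negative value on an array, between 0.0005 and 0.0020, was taken as its noise size. Of the 6 listed muscle fibre markers with a probe all were measured, among them slow myosin Myh7 and myoglobin.

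Of the 8 members, 7 gave a signal on all 6 arrays, and Myf5 did not. Myf5 (probe 22I, Entrez gene 17877) had intensities of 0.0009, 0.0005, 0.0005, 0.0007, -0.0003 and 0.0000 on replicates 1 to 6. It was thus above 0 on 4 arrays and exceeded the noise size on 1, replicate 4, so no level is given for it. The other 7 members exceeded the noise size on every array, as did 60.1% of all probes. Of the 4 satellite cell markers listed, Cd34, which satellite cells share with vessel cells, was the only other one with a probe. It was above 0 on all arrays, while the listed Pax7 and Cdh15 are not named on the array.

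**Figure D1:**
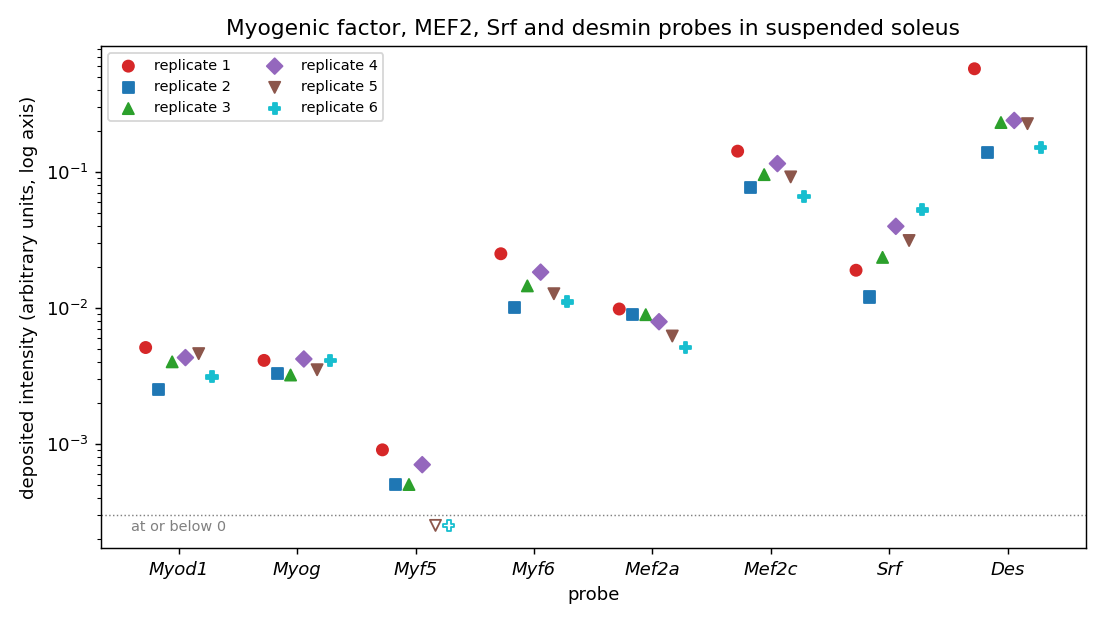
Deposited intensity (arbitrary units, log axis) of each member probe on the 6 arrays, 1 symbol per replicate; open symbols under the dotted line are values at or below 0. Des and Mef2c were bright on every array, Srf spread from 0.0120 to 0.0528, and Myf5 was at or below 0 on replicates 5 and 6.

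Myod1 and Myog were dim but present on every array. Myod1 (probe 23B, Entrez gene 17927), which commits cells to the muscle lineage, had intensities of 0.0051, 0.0025, 0.0040, 0.0043, 0.0046 and 0.0031 on replicates 1 to 6. Myog (probe 23C, Entrez gene 17928), which drives terminal differentiation, had 0.0041, 0.0033, 0.0032, 0.0042, 0.0035 and 0.0041. Both probes were close to background on the noisier arrays: Myod1 was 1.92 times the noise size on replicate 2 and Myog 2.05 times on replicate 1, and at most they reached 8.60 and 8.40 times. The deposited intensity of Myog varied least among the measured members, 1.31-fold between its lowest and highest array and with a coefficient of variation of 12.1% (n = 6), against 24.6% for Myod1. This order depended on the scale. After log2 transformation and subtraction of the array median over measured probes, the level of Myog was -1.20 ± 0.29 (SD, n = 6) and that of Myod1 -1.15 ± 0.25. Myog was highest relative to the array on replicate 6, and its SD was 0.12 without that array.

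Myf6 (probe 22J, Entrez gene 17878), the factor of mature fibres, had intensities of 0.0250, 0.0100, 0.0145, 0.0183, 0.0127 and 0.0111 on replicates 1 to 6, and its lowest value exceeded the highest of Myod1 and of Myog. Its centred level was 0.77 ± 0.24 (SD, n = 6), and 0.18 was the SD without replicate 1. The size of such a gap between probes depends on probe and labelling, and is not a ratio of transcripts.

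Both MEF2 members were measured on all arrays. Mef2c (probe 22G, Entrez gene 17260), the MEF2 member most closely tied to muscle differentiation, had intensities of 0.1423, 0.0764, 0.0956, 0.1153, 0.0920 and 0.0659 on replicates 1 to 6. It ranked between 18 and 22 of the 223 probes in brightness on every array. Mef2a (probe 22E, Entrez gene 17258), a more widely expressed member, had 0.0098, 0.0089, 0.0089, 0.0079, 0.0062 and 0.0051, and ranked between 80 and 102. The centred level of Mef2a was -0.16 ± 0.26 (SD, n = 6). That of Mef2c was 3.48 ± 0.11, and only 1 of the 171 measured probes had a smaller SD. Under other scalings the SD of Mef2c ran up to 0.40, the value without centring.

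Srf and Des had the widest ranges of intensity among the measured members. Srf (probe 23D, Entrez gene 20807) had intensities of 0.0189, 0.0120, 0.0235, 0.0398, 0.0313 and 0.0528 on replicates 1 to 6, a 4.40-fold range with the highest value on replicate 6 and the lowest on replicate 2. Its centred level was 1.64 ± 0.89 (SD, n = 6), its SD without replicate 1 was 0.85, and over the scalings and left-out arrays tried the SD stayed between 0.64 and 1.06. Des (probe 18M, Entrez gene 13346) had 0.5753, 0.1395, 0.2312, 0.2396, 0.2269 and 0.1511, so that replicate 1 lay far above the other arrays and the range was 4.12-fold. On the centred scale replicate 1 exceeded the mean of the others by 1.06, and the level of Des was 4.76 ± 0.48 (SD, n = 6), with an SD of 0.25 without replicate 1. The SD of Des also depended on the scaling. On all 6 arrays it was 0.23 with quantile normalization and 0.73 without centring.

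Among the 7 measured members, 6 had an SD under 0.5 on the centred log2 scale, against 52% of all measured probes. All 7 exceeded the noise size on every array, as did 134 probes in all, against 171 measured, so the background includes dimmer probes. The median SD was 0.26 for the members and 0.48 for all measured probes. Without replicate 1 the count was again 6, against 75.4% of the probes, and the median over all measured probes was 0.35. The median SD was 0.42 for probes in the upper part of the level range, split at its median, and 0.57 for those in the lower part. Myod1 and Myog, below the array median on all arrays, had SDs of 0.25 and 0.29. The SD of Mef2a, above the median on replicates 2 and 3 and below it on the others, was 0.26. The centred levels move with the set of probes that defines the array median and with the background: that of Myod1 ran from -1.75, centred on probes above the noise size, to -0.28, with the noise size added, that of Myf6 from 0.18 to 1.38 and that of Mef2a from -0.75 to 0.54.

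**Figure D2:**
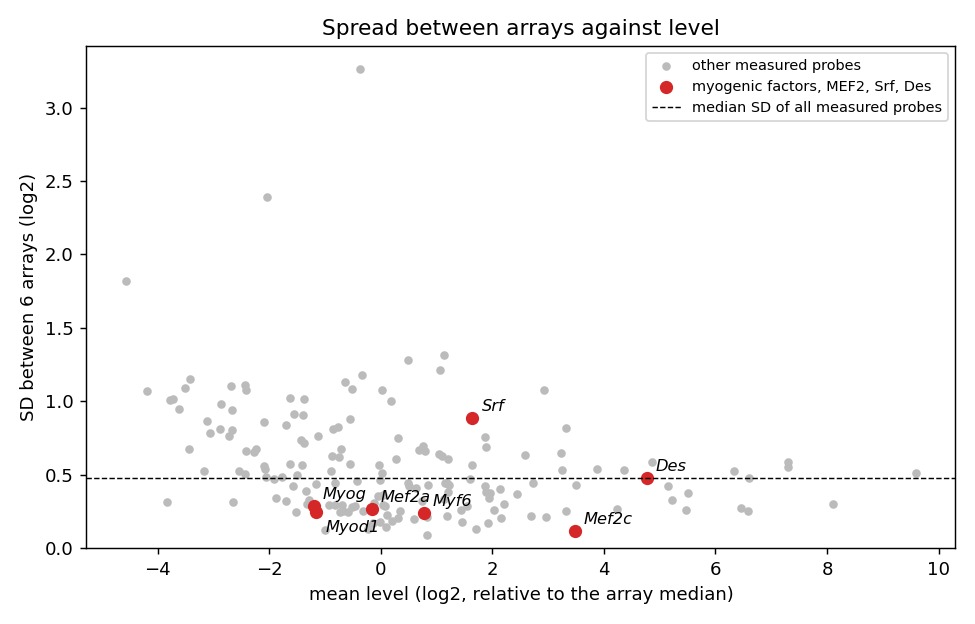
SD between the 6 arrays (log2) against mean level (log2, relative to the array median) for the 171 measured probes; red points are the 7 measured members and the dashed line is the median SD of 0.48. Srf at 0.89 lies above the line, Des at 0.48 on it, and the other 5 members below.

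A factor shared by all probes of an array cancels in ratios between member probes on that array. A background offset, or a scale that differs between bright and dim probes, does not cancel. Replicate 1 had a summed intensity of 37.5, against at most 18.5 elsewhere. Its median over measured probes was 0.0115, against 0.0098 on replicate 4. Quantile normalization changed the log2 SD of Des over Srf from 1.13 to 0.88. The spread of the ratios over the arrays is thus described under these limits, while their size depends on the probes. Among the 3 measured myogenic factors, Myog and Myod1 gave nearly equal signals. The intensity of Myog over Myod1 was 0.804, 1.32, 0.800, 0.977, 0.761 and 1.32 on replicates 1 to 6, with a mean log2 ratio of -0.04 ± 0.37 (SD, n = 6). Myog was the brighter probe on replicates 2 and 6 and the dimmer one on the other 4 arrays. Rounding of the deposited values can move this log2 ratio by at most 0.05, less than its spread. The noise size is the larger limit. It was 0.0013 and 0.0010 on replicates 2 and 6, where Myog was at 0.0033 and 0.0041 and Myod1 at 0.0025 and 0.0031. On these arrays and on replicates 1 and 4 the intensities differed by no more than the noise size. Which probe was brighter there is thus not secure. Myf6 over Myod1 was 4.90, 4.00, 3.62, 4.26, 2.76 and 3.58, with a mean log2 ratio of 1.92 ± 0.28. Myf6 over Myog was 6.10, 3.03, 4.53, 4.36, 3.63 and 2.71, with a mean log2 ratio of 1.97 ± 0.43 and an SD of 0.32 without replicate 1. Myf6 was thus the brighter probe on every array in both pairs. Without replicate 1 the SD was 0.38 for Myog over Myod1 and 0.24 for Myf6 over Myod1.

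Mef2c over Mef2a was 14.5, 8.58, 10.7, 14.6, 14.8 and 12.9 on replicates 1 to 6, with a mean log2 ratio of 3.64 ± 0.32 (SD, n = 6) and an SD of 0.33 without replicate 1. The lowest values fell on replicates 2 and 3, the arrays on which Mef2a was highest relative to the array median. Mef2c over Myod1 had log2 ratios between 4.32 and 4.93, with an SD of 0.24. Mef2c over Myog lay between 16.1 on replicate 6 and 34.7 on replicate 1, with a log2 SD of 0.38, and 0.35 without replicate 1. Of the 21 pairs that the 7 members form, Myf6 and Mef2c had the steadiest ratio over all 6 arrays. Myf6 over Mef2c was 0.176, 0.131, 0.152, 0.159, 0.138 and 0.168, with a log2 SD of 0.16. Without replicate 1 it was 0.15, and Myod1 over Des was then steadier at 0.11. Both pairs were named after their values were seen.

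Des over Srf had the widest spread of the 21 ratios when replicate 1 was included. It was 30.4, 11.6, 9.84, 6.02, 7.25 and 2.86 on replicates 1 to 6, a 10.6-fold range with a log2 SD of 1.13 (n = 6). Without replicate 1 its SD was 0.79, and Mef2a over Srf at 1.11 and Mef2c over Srf at 0.86 then spread more. The 6 pairs with Srf had log2 SDs between 0.68 and 1.13. The 10 pairs without Srf and Des lay between 0.16 and 0.48. Of all 21 member pairs, 13 had an SD under 0.5, against 26.4% of the 14535 pairs of measured probes, and the median SD was 0.44 for member pairs and 0.73 for all pairs. Without replicate 1 it was 14 of the member pairs, against 45.7% of all pairs, with medians of 0.41 and 0.53. The 21 pairs share 7 genes. All 7 exceeded the noise size on every array, which some of the measured probes in the background did not. Myod1 over Des ran from 0.0173 to 0.0205 on replicates 2 to 6, against 0.0089 on replicate 1, with a log2 SD of 0.45 on all arrays. Their correlation was r = 0.36 (exact permutation p = 0.42, adjusted 0.74) and rho = 0.43 (exact p = 0.42, adjusted 0.86), and r = -0.45 without replicates 2 and 5.

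**Figure D3:**
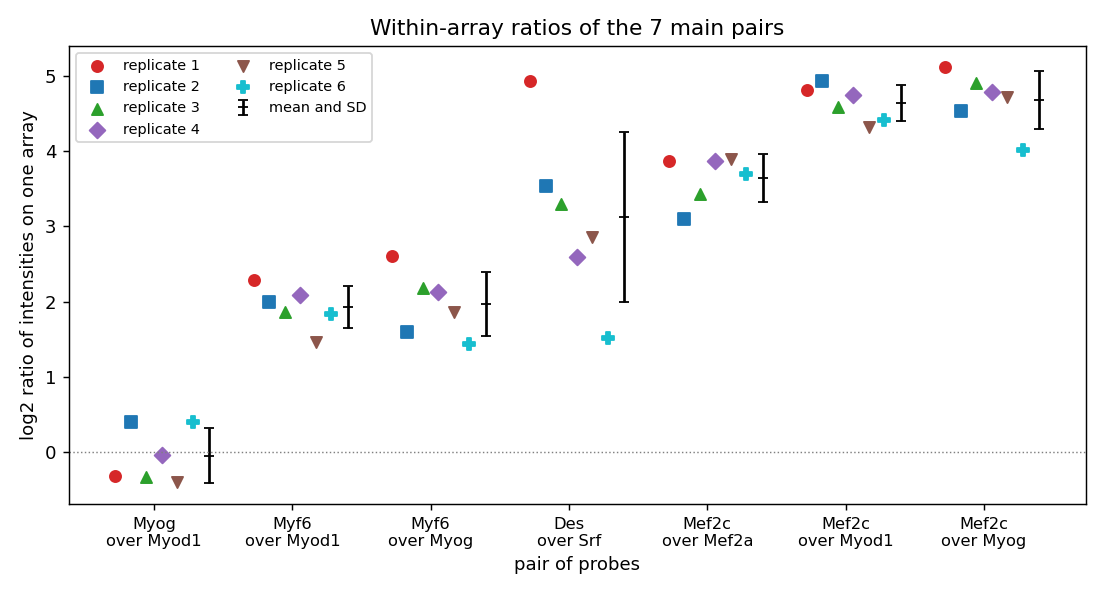
Log2 ratio of intensities on the same array for the 7 main pairs of members, 1 symbol per replicate with the mean and SD beside them (n = 6). Myog over Myod1 lies on either side of 0, and Des over Srf runs from 1.52 on replicate 6 to 4.93 on replicate 1.

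**Figure D4:**
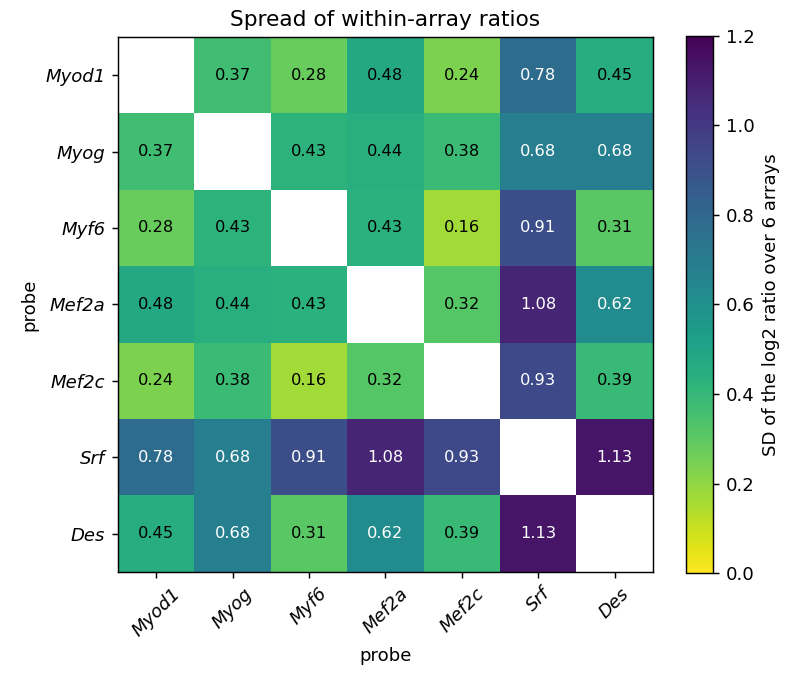
SD over the 6 arrays of the log2 ratio for each pair of measured members; darker cells are less steady ratios. The row of Srf holds the values from 0.68 to 1.13, and the smallest cell is Myf6 with Mef2c at 0.16.

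Correlations over the 6 arrays were computed for 7 pairs of members and, as their background, for all 14535 pairs of measured probes on the centred log2 scale. None of the 7 passed an adjusted p of 0.05 with Benjamini-Hochberg adjustment over all pairs, and neither did any other pair on the array (0%, smallest adjusted p = 0.33, two-sided exact permutation). With 720 pairings the smallest possible exact permutation p is 0.0014. Adjusted over 14535 pairs, a pair could not pass by itself, however close its correlation. That none passed is therefore no evidence that members do not vary together. Before adjustment, 3 of the 21 member pairs had an exact permutation p at or under 0.05, against 11.9% of all pairs: Myog with Mef2c, Myog with Srf, and Mef2c with Des. Myog and Mef2c had r = -0.77 (exact permutation p = 0.033, adjusted 0.38) and rho = -0.83 (exact p = 0.058, adjusted 0.59). Without replicates 1 and 6, the arrays farthest from the median of Myog, r was -0.42, and r was 0.32 without centring and 0.52 with equal totals, so its sign rests on the scaling. The other pairs were singled out after their values were seen. Myog and Srf had r = 0.79 (exact permutation p = 0.033, adjusted 0.38) and rho = 0.43 (exact p = 0.42, adjusted 0.86), and r = -0.16 without replicates 1 and 6. Mef2c and Des had r = 0.81 (exact permutation p = 0.029, adjusted 0.37) and rho = 0.71 (exact p = 0.14, adjusted 0.68), and r = 0.80 without replicates 2 and 6. That last value keeps replicate 1, where the centred levels of both were highest, at 3.63 and 5.64. Their r without replicate 1 was not computed.

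Myod1 and Myog had r = 0.06 (exact permutation p = 0.93, adjusted 0.98) and rho = -0.09 (exact p = 0.92, adjusted 0.99), and r = 0.49 without replicates 2 and 5. Mef2a and Mef2c had r = -0.29 (exact permutation p = 0.58, adjusted 0.83) and rho = 0.14 (exact p = 0.80, adjusted 0.96), and r = 0.67 without replicates 2 and 3. Srf and Des had r = -0.31 (exact permutation p = 0.56, adjusted 0.82) and rho = -0.09 (exact p = 0.92, adjusted 0.99). Without replicates 2 and 6 their r was -0.95, and without replicate 1 it was 0.39.

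The remaining planned pairs were no firmer. Myod1 and Myf6 had r = 0.34 (exact permutation p = 0.53, adjusted 0.81) and rho = -0.09 (exact p = 0.92, adjusted 0.99), and r = -0.77 without replicates 2 and 5. Myog and Myf6 had r = -0.32 (exact permutation p = 0.52, adjusted 0.80) and rho = -0.60 (exact p = 0.24, adjusted 0.77), and r = -0.47 without replicates 1 and 6. Myod1 and Mef2c had r = 0.31 (exact permutation p = 0.58, adjusted 0.83) and rho = -0.26 (exact p = 0.66, adjusted 0.92), and r = -0.77 without replicates 2 and 5. Each of these values thus changed in size or sign with 2 arrays left out.

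The genes whose centred pattern was most like that of a member were taken as the 3 with the highest r over the 6 arrays among 159 named probes ranked per member, and these r values are a description of picked maxima. Without replicate 1 the r of the genes so picked ran from 0.766 to 0.996. The pattern of Des was closest to Dmpk, the kinase gene of myotonic dystrophy (r = 0.999 on 6 arrays, 0.996 without replicate 1). Dmpk had intensities of 0.0547, 0.0096, 0.0174, 0.0180, 0.0169 and 0.0108 on replicates 1 to 6, high on replicate 1 as Des was. Next came the AP-1 gene Jund (0.989, and 0.938 without replicate 1) and the receptor gene Fgfr2 (0.971). Srf was closest to Tnxb, a tenascin of the matrix (r = 0.990, 0.978 without replicate 1), then to the binding protein gene Igfbp6 (0.916) and the incretin gene Gip (0.903). Tnxb had intensities of 0.0262, 0.0163, 0.0231, 0.0286, 0.0238 and 0.0230, a narrower range than that of Srf.

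Myod1 was closest to the laminin chain gene Lama2 (r = 0.936), to follistatin (Fst), an antagonist of myostatin (0.900), and to cyclin D1 (Ccnd1, 0.887), which exceeded the noise size on 3 arrays. Fst had intensities of 0.0118, 0.0062, 0.0088, 0.0091, 0.0097 and 0.0061 on replicates 1 to 6. Uncentred, both Fst and Myod1 were lowest on replicates 2 and 6, the arrays with the lowest medians of measured probes (0.0075 and 0.0065). The centred level of Myod1 was lowest on replicate 2, at -1.58, but on replicate 6 it was -1.07, within the range of the other arrays. Myf6 was closest to Pcna, a clamp of the replication machinery (0.940) that exceeded the noise size on 5 arrays, to the cytochrome oxidase subunit gene Cox4i1 (0.886) and to Fgfr2 (0.885). Mef2a was closest to Arnt (0.790), Acadm (0.766) and the transferrin receptor gene Tfrc (0.707). Mef2c was closest to Csk (0.957), Cd44 (0.910) and Igfbp3 (0.901), which exceeded the noise size on 4, 3 and 4 arrays. Myog was closest to Cpt1b (0.920), which admits fatty acids to mitochondria, to the endothelial receptor gene Kdr (0.881) and to the angiotensin receptor gene Agtr1a (0.872), which exceeded the noise size on 4 arrays. Without replicate 1 these ranked 8, 7 and 16 by r with Myog, while Cd44 ranked 17 and Igfbp3 7 with Mef2c. Arnt then ranked 6 with Mef2a, Ccnd1 8 with Myod1, Cox4i1 9 with Myf6, Gip 10 with Srf and Fgfr2 9 with Des (r = 0.862). Lama2, Pcna, Csk, Tnxb and Dmpk kept rank 1 with their members, and the other picked genes ranked between 2 and 5.

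Kdr marks vessel cells, and all 4 listed endothelial markers with a probe were measured. Their r with Myog was 0.881 for Kdr, 0.871 for Cdh5, 0.459 for Pecam1 and 0.336 for Tek, and with Mef2c it was -0.741, -0.750, -0.844 and -0.04. The summed intensity of the 4 markers, not centred, ran from 0.0618 to 0.0726 over the arrays. That of the 6 muscle fibre markers, which include Des, ran from 2.29 to 6.61. The 6.61 was replicate 1, on which each of the 6 fibre markers was brightest, and the range without that array was not computed. The part of vessel cells in the values of the members was not tested. Of the 6 immune markers listed, only the cytokine genes Il6 and Il1b had a probe, and each was above 0 on 2 arrays. With no more than these, the presence of immune cells was not assessed. The listed fat marker Fabp4 and fibroblast marker Pdgfra were above 0 on all 6 arrays. No listed marker of nerve and Schwann cells had a probe.

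Of 57 other genes of the myogenic, MEF2 and SRF programmes, 14 had a probe and 9 were measured on all arrays. The 5 others, the SRF target Junb, the growth factor genes Fgf2 and Hgf and the receptor genes Fgfr4 and Igf1r, lacked a positive value on 1 or more arrays. The median SD of the 9 was 0.47, and 5 of them had an SD under 0.5. Those of highest intensity were Mb, a target of MEF2 factors, at a centred level of 6.58 ± 0.25, Igf2 at 2.59 ± 0.64, Jun at 2.44 ± 0.37, Igf1 at 1.59 ± 0.47 by its brighter probe, the cell cycle regulator Rb1 at 0.62 ± 0.41 and Fst at -0.02 ± 0.18 (SD, n = 6 each). Igf2, a growth factor gene, had intensities of 0.0336, 0.0697, 0.0526, 0.0639, 0.0761 and 0.0305 on replicates 1 to 6, lowest on replicates 1 and 6.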

How the data were processed

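The authors deposited linear intensities after subtraction of background, as values below 0 show, with scanner, background method and scaling not given in the sources used here. Per the labels, total RNA from muscle sections was used. Gene names came from GEO's platform annotation, and the gene numbers of all 8 members matched the RefSeq gene table of GRCm38.p6. The probes' positions are not given. Values at or below 0 counted as not detected. Measured probes were put on the log2 scale with a pseudocount of 0 and centred on the array median (numpy 2.4.6, pandas 2.3.3). Correlations were tested over all 720 pairings of the arrays, two-sided, with Benjamini-Hochberg adjustment over all pairs, and the procedure was tested on simulated data. All members, the 3 nearest genes per member and up to 6 pathway genes were named by rule. The members and lists were chosen with earlier results of these data known. With 1 group, no conditions were compared. Alternatives were other scalings, the noise size added or used as threshold, and each array left out. The number of arrays limits the precision.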

Additional observations from a re-analysis of the deposited data

Results flagged for a closer look

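Among the 22 sets of 6 values checked (intensities, centred levels and main ratios of the members), 2 held an array whose gap to the nearest other array, as a share of the whole range, exceeded the critical value of Dixon's test. Chance does this in about 1 set in 20. The deposited intensity of Des was 0.5753 on replicate 1 and at most 0.2396 elsewhere (ratio 0.770). The centred level of Myog was -0.66 on replicate 6 and at most -1.18 elsewhere (ratio 0.631).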

How the results depend on the processing

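The count of 7 members above 0 on all arrays was 7 with the noise size as threshold and with each array left out. The count of 6 members with an SD under 0.5 was 5 or 6 in all other scalings and with any array left out. Mean centred levels moved by more than 1 SD in 24 cases, all of them with no centring, with centring on probes above the noise size, with no filter in the centring or with the noise size added. That of Mef2a was 0.20 and 0.54 with no filter and with the noise size added, against -0.16. The mean log2 ratios of the 7 main pairs kept within 1 SD of their value, except Mef2c over Myod1, which was 4.29 with the noise size added to all values, against 4.63. The signs of the pair correlations were not stable, and the cause was not tested. With no centring r was 0.52 for Myog and Myf6, 0.66 for Mef2a and Mef2c and 0.32 for Myog and Mef2c. With equal totals these were 0.38, 0.50 and 0.52. With quantile normalization r was 0.64 for Mef2a and Mef2c and -0.10 for Myod1 and Mef2c. With the noise size added it was -0.40 for Myod1 and Myog and 0.39 for Mef2a and Mef2c. With each array left out in turn, r ran from -0.15 to 0.13 for Myod1 and Myog, from -0.73 to 0.75 for Myod1 and Myf6, from -0.76 to 0.024 for Myog and Myf6, from -0.65 to 0.23 for Mef2a and Mef2c, from -0.28 to 0.62 for Myod1 and Mef2c, from -0.91 to -0.67 for Myog and Mef2c and from -0.85 to 0.39 for Srf and Des. No paired analysis was possible because only 1 group was measured.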

Other observations

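Myod1 is known in rodents for higher expression in fast muscle and Myog for higher expression in slow muscle, so their ratio was set beside that of fast over slow myosin. Myod1 over Myog was 1.24, 0.758, 1.25, 1.02, 1.31 and 0.756 on replicates 1 to 6. The ratio of Myh4, the type IIb heavy chain, over Myh7, the slow one, was 0.325, 0.497, 0.472, 0.492, 0.461 and 0.559. The ratio of Myh1, the type IIx heavy chain, over Myh7 was 0.679, 1.24, 0.886, 0.971, 0.939 and 0.846. Myh2, a further fast heavy chain, had intensities of 0.3344, 0.0807, 0.0619, 0.0631, 0.0818 and 0.0431, lowest on replicate 6. Those of Myh7 were 2.1297, 0.5550, 0.7260, 0.7905, 0.7782 and 0.5861, and Myh2 over Myh7 was not computed. Replicates 2 and 6, lowest in Myod1 over Myog, were highest in Myh4 over Myh7, replicate 2 by a small margin over replicate 4. For Myh4 this is the reverse of the direction named above. In Myh1 over Myh7, replicate 2 was the highest but replicate 6 next to lowest. On replicates 2 and 6 Myod1 and Myog differed by no more than the noise size, so their order there is not secure. These ratios were chosen after the values were seen and were not tested. Des over Myh7 stayed between 0.251 and 0.318 on all 6 arrays, replicate 1 included at 0.270.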
